A study of Sus scrofa with 12 samples.

Results

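High-numbered miRNAs in the porcine ovary were the rows of the mature miRNA table whose ssc-miR number is 1000 or higher, whatever the letter or arm. These were 146 of the 457 listed mature miRNAs, and they carried 128 different numbers. The lowest number inside the rule was miR-1224, with a mean of 1.64 RPM (library reads scaled to a common total, as deposited), and the highest number outside it was miR-935, with 1.91 RPM. The values are those of 6 small RNA libraries, each made from the left ovary of 1 multiparous sow, 4 days after its delivery number 4. The small litter size (SLS) group held ovaries ZD2, ZD3 and ZD12, and the large litter size (LLS) group held ovaries ZD5, ZD7 and ZD8. The groups averaged 8.48 ± 0.53 and 16.19 ± 0.43 piglets per litter, mean ± SEM by the general convention of the study's methods. The labels name no treatment. Each ovary also had 1 total RNA library with gene values in FPKM (fragments scaled to transcript length and library size). The study homogenised frozen ovary tissue and does not say whether this was the whole organ. The libraries can thus mix luteal, follicular, vascular and stromal cells.

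The depth, here the read total to which the deposited RPM values were scaled, lay between 3537619 and 9854086 per small RNA library. Of this total, 97.58% to 98.72% fell on the listed miRNAs. It was recovered from the RPM values and may differ from the number of sequenced reads. At this depth, 3 reads were worth between 0.304 and 0.848 RPM. The gene libraries gave the steroid-making luteal markers STAR, CYP11A1, HSD3B1, SCARB1 and LHCGR a summed level of 9091 to 12043 FPKM in 5 ovaries and of 106 FPKM in the LLS ovary ZD8. None of these 5 markers was at 0 in any ovary. Of the lists below, the granulosa marker CYP19A1 and the epithelial marker KRT18 were at 0 in some ovary. In ZD8 the 2 theca markers summed to 415 FPKM against 9.31 to 74.5 FPKM in the other ovaries, and the 4 oocyte markers to 100.3 against 6.39 to 19.5 FPKM. The 4 granulosa markers summed to 25.7 FPKM in ZD8 and to 2.80 to 15.8 FPKM elsewhere, and the 3 endothelial markers to 84.9 against 179.8 to 268.6 FPKM. The 3 immune markers summed to 13.0 FPKM in ZD8 against 5.07 to 8.46 FPKM, and the 2 erythroid markers to 28.8 against 53.4 to 318.5 FPKM, while epithelial and smooth muscle markers lay within the range of the others. ZD8 therefore stood apart from the other ovaries, LLS ovaries included, and the main results that rest on it are given with and without it. In mixed tissue, fewer cells of a type and less RNA per cell cannot be told apart.

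A mature miRNA is a strand of about the length of a short primer, cut from a hairpin precursor and loaded into an Argonaute protein. It recognises messenger RNAs mainly through its seed, the bases 2 to 8 from the 5′ end, so miRNAs with the same seed can share targets. A hairpin can release a strand from its 5′ side (the 5p arm) and another from its 3′ side (the 3p arm), and often 1 of them accumulates. miRNA numbers are given in the order of discovery, which means that the old and widely conserved families have low numbers and that high numbers mostly belong to hairpins found later by deep sequencing. A high number does not make a miRNA a pig miRNA. At least 13 of the 146 rows, under 10 numbers of a short list drawn up from textbook knowledge, carry a number that is also in use for human miRNAs, among them miR-1249, miR-1271, miR-1285, miR-1296, miR-1306, miR-1307, miR-1343 and miR-1468. Enrichment in the pig cannot be read from a table of pig ovaries, and the rows are called here by their number alone.

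The mature sequences on which the results below turn are printed 5′ to 3′ as deposited, with T for U and with the seed in capitals. The first 6 belong to the most abundant high-numbered miRNAs and the next 5 to those that differed most between ovaries, have many places in the genome or had the smallest p between LLS and SLS. The last 3 lines show miR-96-5p, whose seed miR-1271-5p carries, and miR-4334-3p beside miR-339-5p, which share a seed with each other and with the row named miR-339.
miR-1285: cTGGGCAAcatagcgagaccccgt
miR-1307: aCTCGGCGtggcgtcggtcgtg
miR-1271-5p: cTTGGCACctagtaagcactc
miR-7134-3p: aTGCGGAAcctgcggatacgg
miR-7134-5p: aTGTCCGCgggttccctatcc
miR-4332: cACGGCCGccgccgggcgcc
miR-7857-3p: aTTGTTCTccaacctggctctt
miR-10391: aAGGAAGGagactaactccgcc
miR-10390: aTACTACTgacagaccgcaacct
miR-4331-3p: tGTGGCTGtggtgtaggccagc
miR-10384: cCCTGCGTggcttctctgtgca
miR-96-5p: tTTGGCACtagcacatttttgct
miR-4334-3p: tCCCTGTCctccaggagctc
miR-339-5p: tCCCTGTCctccaggagctcac

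Most seeds were private. The 146 sequences, 19 to 24 bases long, carried 144 different seeds, and 9 of them (6.16%) shared a seed with another listed row, against 115 of the 311 lower-numbered rows (37.0%). Only 5 shared it with a lower-numbered miRNA. miR-1271-5p carries the seed of miR-96-5p, a member of the miR-183 cluster. Values are given in the order ZD2, ZD3, ZD12 for SLS and ZD5, ZD7, ZD8 for LLS throughout. miR-1271-5p was read at 536, 583 and 679 RPM in SLS and at 533, 614 and 536 RPM in LLS. miR-96-5p was read at 99.8, 75.8 and 49.1 RPM and at 137, 234 and 7.14 RPM in the same order. The high-numbered member of the pair was therefore the more abundant in 6 of 6 ovaries, by 2.62 to 13.8 times in 5 ovaries and by 75.1 times in ZD8, where miR-96-5p was lowest. miR-4334-3p shares its seed with miR-339-5p because its 20 bases are contained in that sequence, and the same holds for the row miR-339. The exact matches of miR-4334-3p in the genome include the annotated hairpins MIR339-1 on chromosome 3 and MIR339-2 on chromosome 1 as well as its own hairpin MIR4334 (chr15:121399612-121399680, plus strand). Reads of these hairpins cannot be assigned to 1 of them by this sequence. miR-4334-3p was read at 82.5, 124.7 and 104.3 RPM in the SLS ovaries and at 114.3, 72.6 and 80.9 RPM in the LLS ovaries, which was 15.3% to 26.1% of the miR-339-5p level in the same ovary. miR-339 was read at 148, 228 and 256 RPM and at 229.5, 157 and 170.3 RPM. The other 3 members with the seed of a lower-numbered miRNA were miR-9843-3p (with miR-146a-3p), miR-9790-3p (with miR-186-5p) and miR-9814-3p (with miR-1 and miR-206, the muscle miRNAs).

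Few high-numbered miRNAs were abundant. By the mean over the 6 ovaries, 64 of 146 reached 1 RPM (43.8%), 36 reached 10 RPM (24.7%) and 10 reached 100 RPM (6.85%). Of the 311 lower-numbered miRNAs, 286 (92.0%), 236 (75.9%) and 149 (47.9%) reached these levels. When every ovary had to reach the level, 41, 22 and 7 high-numbered miRNAs remained, and when 1 ovary was enough the counts were 104, 38 and 18. The median of the means was 0.815 RPM over the high-numbered rows and 81.7 RPM over the others. In single libraries the number at 1 RPM or more lay between 46 (ZD8) and 93 (ZD3, the shallowest library, in which 1 RPM is fewest reads). At 10 RPM, where depth weighs less, the counts were 36, 33 and 28 in the SLS ovaries and 36, 35 and 24 in the LLS ovaries, lowest in ZD8 and ZD12. 1 row, miR-9815-3p, had no read in any library, which allows up to 3 reads, or 0.304 to 0.848 RPM, per library.

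All 146 together took under 1% of the reads on listed miRNAs in every library. The share was 0.467%, 0.502% and 0.380% in SLS and 0.573%, 0.529% and 0.272% in LLS, the last being ZD8. The exact 95% binomial interval, which covers counting error only, was narrow, from 0.269% to 0.276% in ZD8 and from 0.567% to 0.579% in ZD5. The SLS and LLS ranges overlapped, because the LLS ovaries held both the highest share and the lowest. Without ZD8 they did not overlap, with 0.529% as the lower of the remaining LLS shares and 0.502% as the highest SLS share. The 3 most abundant members made up 38.1% to 49.5% of these reads and the 10 most abundant 71.5% to 80.2%.

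The level differed with the range of the number. The 17 rows from miR-1224 to miR-1842 had a median of 24.0 RPM, and 11 of them reached 10 RPM. The 15 rows from miR-2320 to miR-4339 had a median of 15.0 RPM with 10 at 10 RPM. The 114 rows from miR-6516 upwards had a median of 0.726 RPM with 15 at 10 RPM. Inside that last range, the 79 rows from miR-9784 to miR-9862 had a median of 0.487 RPM and only 3 reached 10 RPM, whereas the 9 rows from miR-10382 to miR-10391 had a median of 35.5 RPM and 6 reached 10 RPM. The most abundant row of the block from miR-9784 to miR-9862 was miR-9843-3p, from an intron of SGMS2, with a mean of 46.1 RPM. The 13 rows on the short list of human numbers had a median of 44.2 RPM, and 10 of them reached 10 RPM. The list is not complete, since miR-3613 and miR-6516 are human numbers too, and no comparison with the remaining rows is made. The blocks that start at miR-9784 and at miR-10382 were set apart after the values had been seen.

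**Figure D1:**
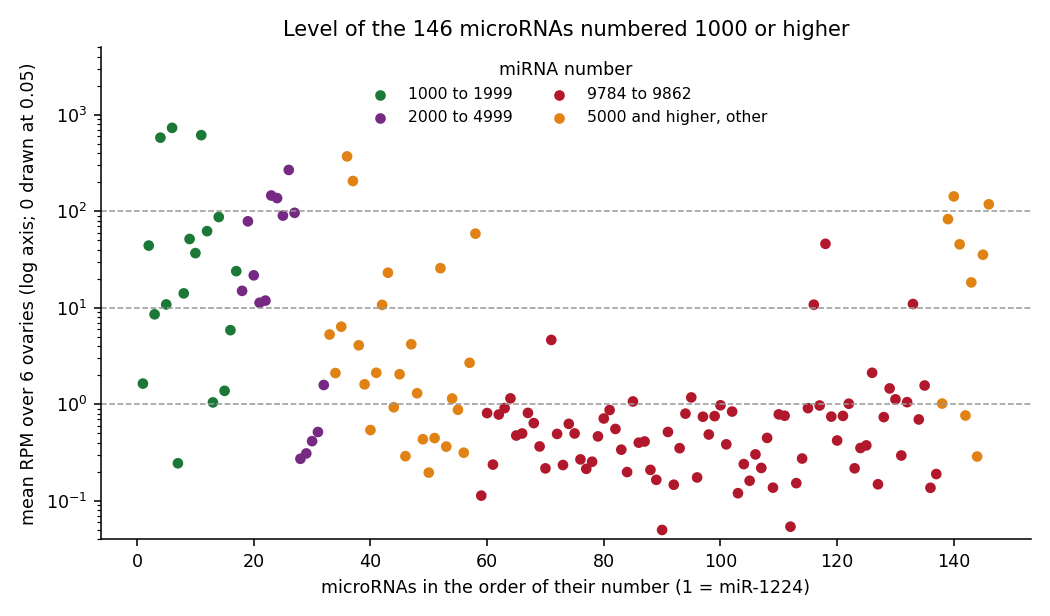
Mean RPM over the 6 ovaries (log axis, 0 drawn at 0.05) of each of the 146 high-numbered miRNAs, placed in the order of their number and coloured by number range, with dashed lines at 1, 10 and 100 RPM. Most points of the block from miR-9784 to miR-9862 lie under 1 RPM, and 10 points of the whole set lie above 100 RPM.

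Exact matches of the mature sequence in the Sscrofa11.1 assembly showed that a few of the abundant rows do not point to a single hairpin. Of the 146, 118 (80.8%) had exactly 1 match, 22 had several and 6 had none, against 262 (84.2%), 46 and 3 of the lower-numbered rows. The 6 without a match were miR-4332, miR-4339, miR-9793-5p, miR-9806-5p, miR-9834-5p and miR-9862-3p. miR-4332 was the fifth most abundant high-numbered miRNA, and 95% of its bases are G or C. miR-4331-3p had 28774 matches, 14443 on the plus and 14331 on the minus strand, and every one lay in sequence that the assembly marks as a repeat. Its annotated hairpin is MIR4331 (chr6:65468483-65468562, minus strand), in no host gene. miR-1285 had 2 matches, both on chromosome 1 and neither in an annotated hairpin. The first (chr1:179457256-179457279, plus strand) lies by the 3′ end of LOC102723301, annotated as the RNA of the signal recognition particle, the complex that carries nascent secretory proteins to the endoplasmic reticulum. The second (chr1:179686400-179686423, minus strand) lies in no annotated gene.

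miR-10390 and miR-10391 were the 2 rows among all 457 that matched the mitochondrial genome exactly. miR-10390 matched the sense strand of COX1, a subunit of cytochrome c oxidase (positions 7132 to 7154 of the 16613 bases), and an unannotated place on chromosome 9 (chr9:4700853-4700875, minus strand). miR-10391 matched the strand opposite to the mitochondrial proline tRNA (positions 16551 to 16572), and it also matched 1 place on chromosome 2 and 2 on chromosome 15. Neither had an annotated hairpin. From these sequences alone, reads of nuclear and of mitochondrial origin cannot be told apart.

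Where a hairpin was annotated, it was as often inside a gene as for other miRNAs. Of the 100 annotated hairpins of high-numbered miRNAs, 45 (45.0%) lay on the same strand within a protein-coding gene or a long noncoding RNA, against 96 of 215 (44.7%). Hairpins in introns included MIR1307 in USMG5 (chr14:114325624-114325703, minus strand), MIR1271 in ARL10 (chr2:81502823-81502900, minus strand), MIR7134 in TNRC6B (chr5:8161126-8161187, minus strand), MIR2366-1 in MAP1A (chr1:127928791-127928873, minus strand) and MIR1249-1 in KIAA0930 (chr5:4187912-4187993, plus strand). TNRC6B encodes a protein of the miRNA silencing complex itself. The hairpin of miR-1306 overlaps an exon of DGCR8 (chr14:51473918-51473997, plus strand), which encodes the partner of Drosha in cutting hairpins from their primary transcripts. Without an annotated hairpin, the single match of miR-10383 lay in an intron of IGF2, the imprinted growth factor gene, and that of miR-10384 in an intron of LHFPL2 (chr2:87391580-87391601, minus strand). MIR7857 (chr7:21459700-21459787, plus strand) and MIR9858 (chr4:51211583-51211660, plus strand) lay in no host gene.

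The 10 most abundant high-numbered miRNAs ranged from steady to variable between ovaries, with a highest value between 1.27 times (miR-1271-5p) and 77.3 times (miR-10391; 8.01 times without ZD12) the lowest. miR-1285, ranked 72 in the whole table, was read at 764, 914 and 807 RPM in the SLS ovaries and at 1002, 520.3 and 389 RPM in the LLS ovaries. It was highest and lowest in LLS ovaries, so the groups overlapped. The RNA of the signal recognition particle that holds its match was measured at 889, 679 and 816 FPKM and at 616, 611 and 2212 FPKM, highest in ZD8, where miR-1285 was lowest. miR-1307 was read at 957, 564 and 314 RPM in the SLS ovaries and at 602, 1121 and 137 RPM in the LLS ovaries, again with both extremes in LLS, and its highest value was 8.19 times the lowest, or 3.57 times without ZD8. The host gene of miR-1307, USMG5, a small subunit of the mitochondrial ATP synthase, was at 91.6, 121.8 and 113.1 FPKM and at 130, 96.5 and 46.2 FPKM, lowest in ZD8 as well. In ovary ZD7, where miR-1307 was highest, USMG5 was not.

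miR-1271-5p, whose values are given above, was the steadiest member with a mean of at least 5 RPM, with an SD of 0.14 on the log2(RPM + 1) scale over the 6 ovaries and a highest value 1.27 times the lowest. Its host gene ARL10 was at 11.9, 8.55 and 15.2 FPKM in the SLS ovaries and at 5.82, 7.13 and 13.8 FPKM in the LLS ovaries. miR-3613 came next, at 159, 171 and 117 RPM and at 165, 149 and 115 RPM, a range of 1.49 times. miR-7134-3p was read at 256, 333 and 410.3 RPM in the SLS ovaries and at 419.7, 386 and 421 RPM in the LLS ovaries. The other arm, miR-7134-5p, was read at 203, 159 and 160.3 RPM and at 311, 278 and 125 RPM. The 3p arm was the higher in 6 of 6 ovaries, by 1.26 to 3.38 times, and the gap was widest in ZD8. Their host TNRC6B was at 8.32, 13.0 and 11.9 FPKM and at 12.2, 10.9 and 23.1 FPKM.

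miR-4332 was read at 249, 242 and 318 RPM in the SLS ovaries and at 372, 204 and 225 RPM in the LLS ovaries, with overlapping groups. miR-10384 was read at 91.1, 74.3 and 159 RPM in the SLS ovaries and at 188, 227 and 117 RPM in the LLS ovaries. Its 2 highest values were in LLS and its 2 lowest in SLS. LHFPL2, in which it lies, was at 24.3, 28.8 and 35.0 FPKM in the SLS ovaries and at 58.6, 44.7 and 49.2 FPKM in the LLS ovaries, and the difference was not tested here. miR-4331-3p and miR-10391, the remaining 2 of the 10, were also among the most variable.

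**Figure D2:**
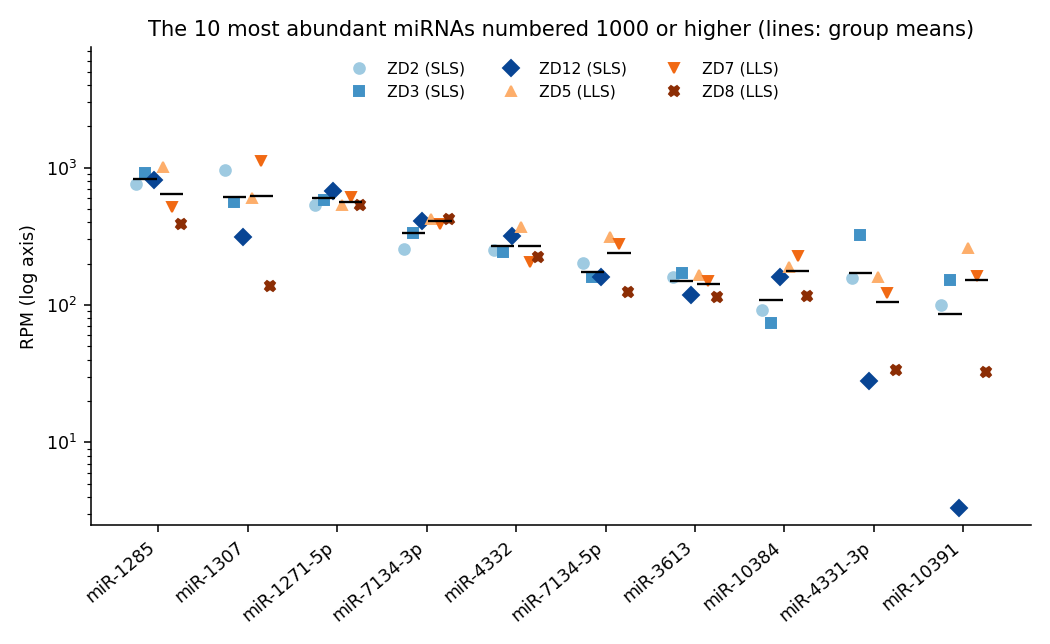
RPM (log axis) of the 10 most abundant high-numbered miRNAs in each of the 6 ovaries, blue for SLS and orange to brown for LLS, with a line at each group's mean. miR-1271-5p and miR-3613 lie in a narrow band, whereas miR-10391 runs from 3.35 RPM in ZD12 to 259 RPM in ZD5.

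Of the 18 numbers with both arms listed, 10 had the same arm higher in 6 of 6 ovaries. For miR-1271 the 5p arm was 39.1 to 129 times the 3p arm, which was read at 13.7, 9.89 and 5.28 RPM in the SLS ovaries and at 8.43, 9.89 and 4.26 RPM in the LLS ovaries. The 3p sequence also matched places outside MIR1271 on several chromosomes, all in sequence that the assembly marks as a repeat. The 5p sequence also matched a place on chromosome 9. By sequence alone, reads of either arm cannot be assigned to this hairpin. For miR-7142 only the 3p arm reached 1 RPM on average, with a mean of 25.8 RPM against 0.365 RPM. miR-1306 had no fixed order, since the 3p arm was higher in 3 ovaries and the 5p arm in the other 3.

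Among the 40 high-numbered miRNAs with a mean of at least 5 RPM, the 8 with the largest SD between ovaries were miR-7857-3p, miR-10391, miR-10390, miR-9858-5p, miR-4331-3p, miR-1842, miR-2411 and miR-2366. Each had its lowest value in ZD8 or in ZD12. miR-7857-3p was the most variable, with 21.9, 28.6 and 8.93 RPM in SLS and 158, 134 and 0.691 RPM in LLS, the last in ZD8. The value in ZD8 rested on 6 reads, with an exact 95% binomial interval from 0.253 to 1.5 RPM. The highest ovary was 229 times the lowest, both of them LLS, and 17.7 times the lowest without ZD8. The SD on the log2(RPM + 1) scale was 2.45 over all ovaries and 1.72 without ZD8.

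miR-10391 was read at 100.1, 152 and 3.35 RPM in the SLS ovaries and at 259, 163 and 32.3 RPM in the LLS ovaries. Its lowest value was 33 reads in ZD12, the deepest library, with an interval from 2.31 to 4.70 RPM. miR-10390 was read at 57.5, 47.8 and 2.84 RPM and at 51.7, 35.4 and 17.95 RPM, with 28 reads in ZD12 and an interval from 1.89 to 4.11 RPM. Both of the rows that match the mitochondrial genome were thus lowest in ZD12 and next lowest in ZD8. Without ZD12 their SDs were 1.12 and 0.66, against 2.18 and 1.5 over all ovaries, and without both ZD12 and ZD8 they were 0.56 and 0.29.

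The messenger RNA of COX1, which holds the match of miR-10390, was measured at 4612, 9996 and 2644 FPKM in the SLS ovaries and at 9296, 5561 and 899 FPKM in the LLS ovaries. COX3, another subunit of the same enzyme, was at 3195, 6471 and 2535 FPKM and at 6836, 2885 and 972 FPKM. CYTB, of respiratory complex III, was at 636, 1490 and 268 FPKM and at 1738, 277 and 142 FPKM. The 13 mitochondrial protein genes summed to 10152, 23391 and 6353 FPKM and to 23273, 9584 and 2378 FPKM in the same order. In this sum ZD8 was lowest and ZD12 next, the reverse of the order in the 2 small RNA rows. COX1, COX2, COX3, CYTB, ATP6, ND2, ND3 and ND6 had the order of the sum. For ND1, ND4, ND4L and ND5, ZD8 was lowest but ZD7 lay below ZD12, with 27.3 against 39.95 FPKM for ND1. ATP8 was at 0 in ZD12, ZD7 and ZD8. Whether the mitochondrial RNA content has a part in the values of these rows was not tested.

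**Figure D3:**
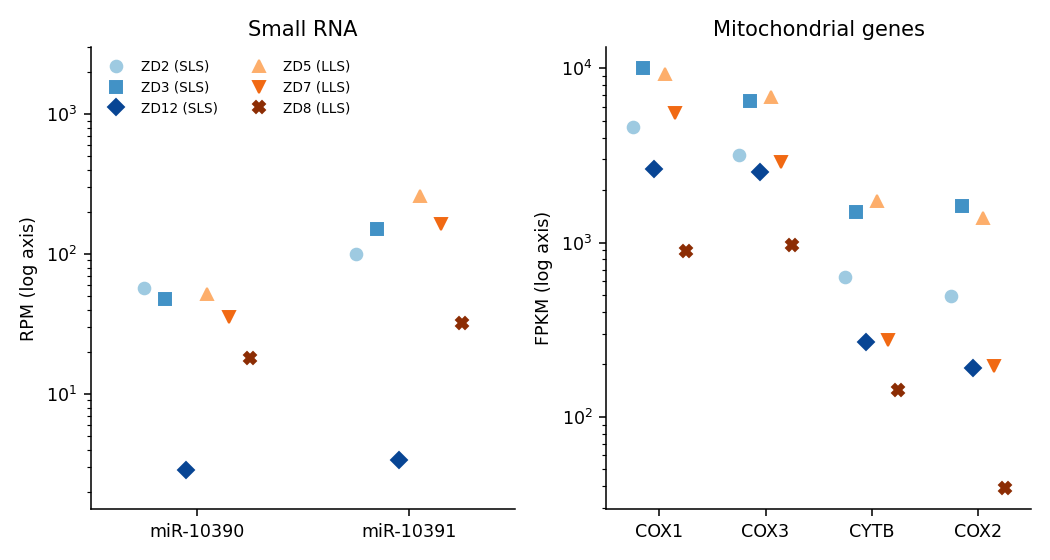
RPM of the 2 rows that match the mitochondrial genome (left) and FPKM of 4 mitochondrial messenger RNAs (right) in each ovary, both on log axes, blue for SLS and orange to brown for LLS. ZD12 is lowest for both small RNA rows, at 2.84 and 3.35 RPM, and ZD8 is lowest for each of the 4 genes.

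miR-9858-5p was read at 14.0, 23.7 and 0.913 RPM in the SLS ovaries and at 13.8, 10.6 and 2.65 RPM in the LLS ovaries. Its value in ZD12 rested on 9 reads, with an interval from 0.418 to 1.73 RPM. miR-4331-3p, the row with 28774 genome matches, was read at 156.5, 325 and 28.1 RPM and at 159, 121.3 and 33.5 RPM, and miR-4331-5p, the other arm, at 104.4, 169.9 and 26.7 RPM and at 107.0, 99.2 and 35.0 RPM. Both arms were lowest in ZD12, next lowest in ZD8 and highest in ZD3.

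The last 3 of the 8 were lowest in ZD8. miR-1842, which matches an exon of PGP and an intron of TBC1D22A, was read at 24.8, 32.2 and 12.1 RPM in the SLS ovaries and at 36.3, 35.3 and 3.34 RPM in the LLS ovaries, with an SD of 1.22 over all ovaries and 0.63 without ZD8. miR-2411, from an intron of UBAP2L, was read at 15.4, 9.89 and 3.96 RPM and at 11.8, 24.9 and 1.73 RPM, with an SD of 1.19 over all ovaries and 0.88 without ZD8. UBAP2L itself was at 46.4 FPKM in ZD8 and between 39.5 and 63.5 FPKM in the others. miR-2366, from an intron of the microtubule protein gene MAP1A, was read at 16.4, 18.4 and 13.5 RPM and at 40.1, 38.1 and 3.91 RPM. MAP1A was at 69.0, 55.2 and 40.2 FPKM and at 84.3, 73.7 and 18.3 FPKM, so that miRNA and host were both lowest in ZD8. The SD of miR-2366 was 1.12 over all ovaries and 0.69 without ZD8.

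**Figure D4:**
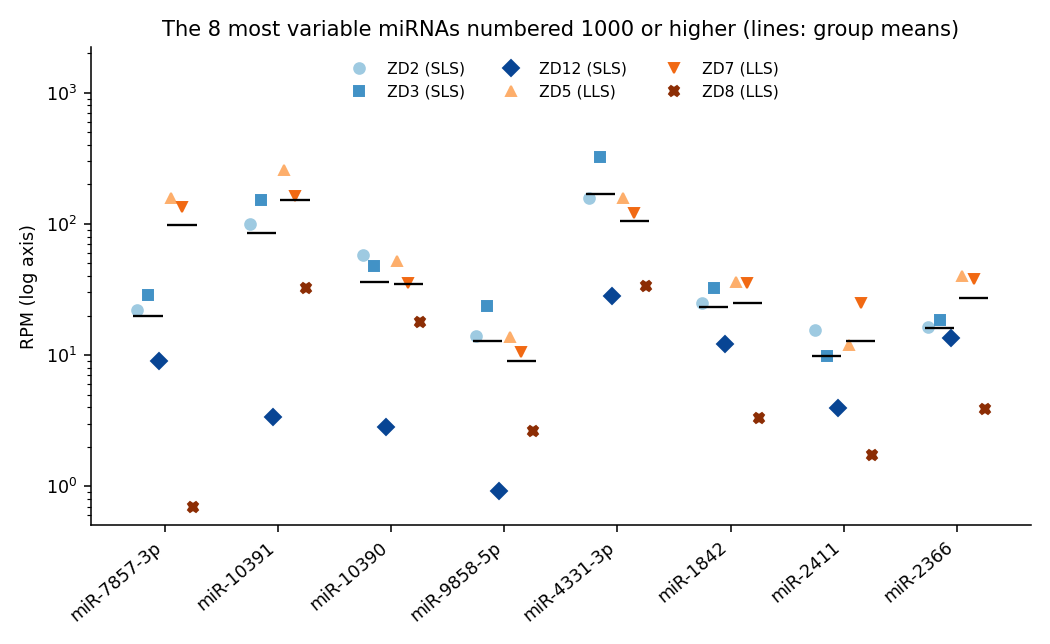
RPM (log axis) of the 8 high-numbered miRNAs with the largest SD between ovaries, blue for SLS and orange to brown for LLS, with a line at each group's mean. ZD12 or ZD8 is the lowest point of every column, down to 0.691 RPM for miR-7857-3p in ZD8.

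The low values of ZD8 and ZD12 were not limited to these 8. Of the 146, 65 had at least 1 RPM in at least 3 libraries and entered the tests, beside 288 of the 311 lower-numbered miRNAs. ZD8 or ZD12 held the lowest value for 48 of the 65 (73.8%) and for 142 of the 288 (49.3%), and the highest value for 5 (7.69%) and 93 (32.3%). ZD8 lay below the mean of the other ovaries on the log2(RPM + 1) scale for 62 of the 65, with a median difference of -0.73. For the 288 lower-numbered miRNAs this held for 180, with a median of -0.26. ZD12 lay below the mean of the 4 ovaries other than ZD8 for 52 of the 65, with a median of -0.68, and for 154 of the 288, with a median of -0.06. These are counts over rows of the same libraries and no test was made on them. ZD12 and ZD8 were also the deepest small RNA libraries, with 9854086 and 8688519 reads, and ZD7 came next with 6775070. The ovary ZD8 had the low luteal marker sum given above. ZD12, with 9091 FPKM, had the lowest sum of the other 5 ovaries, near the 9547 FPKM of ZD2. ZD12 was also next to ZD8 in the summed theca markers, with 74.5 FPKM against 9.31 to 18.9 in the remaining 4, in the oocyte markers, with 19.5 against 6.39 to 10.9, and in the granulosa markers, with 15.8 against 2.80 to 8.64. For the erythroid markers ZD12 was next to ZD8 too, with 53.4 FPKM, but ZD5 was close at 55.7. It was not next in the endothelial markers (193.3 FPKM, against 179.8 in ZD5) or the immune markers (5.64 FPKM, against 8.46 in ZD2). ZD12 lay within the range of the other 5 ovaries, ZD8 included, in every marker list. The part of tissue makeup or of depth in these miRNA differences was not tested. The SD between ovaries was otherwise alike, with a median of 0.56 over the 65 and 0.55 over the 288.

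LLS was compared with SLS by limma on log2(RPM + 1) over the 353 tested miRNAs, with Benjamini-Hochberg adjustment over all 353 and a call at an adjusted p under 0.05 and a log2 fold change over 1 in size. None of the 65 high-numbered miRNAs was called, beside 0 of 353 in the whole table (0.0%), and the smallest adjusted p from limma was 0.997. At an unadjusted p under 0.05, limma gave 0 of 65 and 0 of 353 (0.0%), edgeR's quasi-likelihood test gave 0 of 65 and 4 of 353, and DESeq2 gave 1 of 65, which was miR-7857-3p, and 7 of 353, with 0 calls after adjustment in each. The groups did not overlap for 0 of the 65, against 10 of 353 over the whole table (2.83%). Of the 65, 30 had a log2 fold change above 0 and 35 below, with a median of -0.06 beside -0.01 over all 353, and 1 was over 1 in size against 14 of the 353. The 95% interval of a difference reached a median of 1.11 on the log2 scale to either side of it, before any adjustment. The fold changes are on the log2(RPM + 1) scale, which understates changes of rare miRNAs, and the p-values measure the spread between these ovaries.

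The 5 high-numbered miRNAs with the smallest p from limma were miR-10384, miR-9841-3p, miR-1249, miR-1285 and miR-10391, and miR-7857-3p is added because the study names it. miR-10384 averaged 108.3 ± 45.1 RPM in SLS and 177 ± 55.9 RPM in LLS (SD, n = 3 each), a log2 fold change of 0.73 (SE 0.47; limma adjusted p = 0.997; exact permutation p = 0.2). miR-9841-3p, from an intron of F13A1, which encodes a clotting factor subunit that macrophages also make, averaged 15.0 ± 10.2 and 6.62 ± 2.72 RPM (SD, n = 3 each). Its log2 fold change was -0.84 (SE 0.65; limma adjusted p = 0.997; exact permutation p = 0.4). It was -0.37 without ZD3 and -1.52 without ZD12, the latter with an unadjusted p of 0.023 and an adjusted p of 0.994 by limma, and over all alternatives its adjusted p lay between 0.952 and 1. Its single values were 16.4, 24.3 and 4.16 RPM in SLS and 9.73, 4.72 and 5.41 RPM in LLS, with the lowest of all in the SLS ovary ZD12. F13A1 was at 5.52, 2.77 and 4.75 FPKM in SLS and at 1.0, 1.23 and 3.98 FPKM in LLS.

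miR-1249 was read at 17.3, 42.4 and 28.1 RPM in the SLS ovaries and at 102.5, 53.7 and 21.1 RPM in the LLS ovaries, so that ZD5 and ZD7 lay above each SLS ovary and ZD8 among them. Its log2 fold change was 0.81 (SE 0.65; limma adjusted p = 0.997), and 0.29 without ZD5. Its host KIAA0930 was at 25.8, 23.3 and 26.8 FPKM and at 26.9, 41.2 and 8.70 FPKM. miR-1285 had a log2 fold change of -0.49 (SE 0.42), which was -0.19 without ZD8 and -0.88 without ZD5. miR-10391 had a log2 fold change of 1.47 (SE 1.34) and was the only tested member over 1 in size in the limma fit over all 6 ovaries. miR-1285 and miR-10391 both had a limma adjusted p of 0.997. By edgeR's quasi-likelihood test and by DESeq2, miR-7857-3p (2.11 and 2.17) and miR-9841-3p (-1.2 and -1.13) were over 1 in size. Without the SLS ovary ZD12, the log2 fold change of miR-10391 was -0.15, and over all 6 ovaries it was 0.69 by edgeR and 0.76 by DESeq2.

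miR-7857-3p averaged 19.8 ± 9.98 RPM in SLS and 97.7 ± 84.9 RPM in LLS (SD, n = 3 each). Its log2 fold change was 0.81, with a 95% interval from -2.79 to 4.42 (limma adjusted p = 0.997; exact permutation p = 0.8), because the 2 highest values and the lowest were all in LLS. Without ZD5 it was -0.32 and without ZD7 -0.20, both reversed. It was 0.52 with a pseudocount of 0.1 RPM, 2.11 by edgeR's quasi-likelihood test and 2.17 by DESeq2. Without ZD8 the log2 fold change was 2.96, with an unadjusted p of 0.00048 and an adjusted p of 0.068 by limma, which misses the threshold, and over all alternatives its adjusted p lay between 0.068 and 1. In that fit without ZD8, 3 of the 65 had an unadjusted p under 0.05, beside 11 of 353 in the whole table (3.12%). The other 2 were miR-2366, with a log2 fold change of 1.24 and an adjusted p of 0.926, and miR-1249, with 1.4 and 0.926, both higher in LLS, and the adjusted p of either lay between 0.926 and 1 over the alternatives. The median log2 fold change of the 65 moved from -0.06 to 0.38 without ZD8, and that of all 353 from -0.01 to 0.16. The miRNA miR-2336, which the study also names, is not among the listed miRNAs and could not be analysed here.

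**Figure D5:**
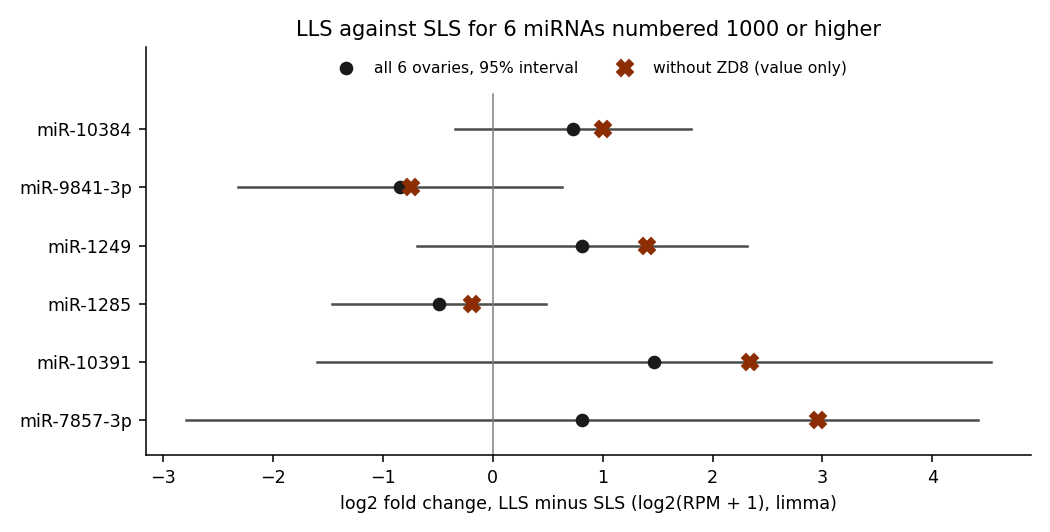
Log2 fold change of LLS minus SLS on the log2(RPM + 1) scale for 6 high-numbered miRNAs, as dots with the 95% interval from limma over all 6 ovaries, and as crosses the value without ZD8, drawn with no interval. All 6 intervals include 0, and miR-7857-3p moves from 0.81 to 2.96 without ZD8.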

How the data were processed

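Small RNA and total RNA of the left ovary were sequenced in 3 sows of each group, SLS and LLS, and the labels of the authors set the groups. Per the labels, HISAT2, BWA and the Sscrofa11.1 build were used upstream, and versions and the miRNA annotation are not given in the sources used here. The authors deposited miRNA values as RPM under the name TPM. All 2618 values above 0 gave whole reads to within 2.3e-10 (100%), so the depth is known. The authors deposited gene values as FPKM, used here only as descriptions beside the miRNAs.

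Members were the 146 rows with a number of at least 1000. The members and the lists were chosen with earlier results of these data known. The small RNA columns carry ovary names only and were used as replicates of their group. The main test was limma 3.58.1 in R 4.3.3 on log2(RPM + 1) with eBayes variance trend, for rows that reached 1 RPM in 3 or more libraries, with Benjamini-Hochberg adjustment over all 353 rows and calls at an adjusted p under 0.05 and a log2 fold change over 1 in size. For single miRNAs an exact permutation test, two-sided, was added, with 0.1 as its smallest possible p. Alternatives were a pseudocount of 0.1 RPM, no filter, median centring, edgeR 4.0.16 and DESeq2 1.42.0 on the recovered reads, and leaving out each ovary. The scripts were tested on simulated data. Named were the 10 members with the highest mean, the 8 with the largest SD of log2(RPM + 1) among those with a mean of at least 5 RPM, the 5 with the smallest p from limma, members whose groups did not overlap, those the study names, and their other arms. Rows singled out in the text beyond this rule were chosen after their values were seen. Mature sequences came from the deposited table and were matched exactly, on both strands, to the RefSeq copy of Sscrofa11.1 with its annotation. Intervals are exact Clopper-Pearson intervals and cover counting error only, since reads without molecular identifiers are not independent molecules.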

Additional observations from a re-analysis of the deposited data

How the results depend on the processing

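No high-numbered miRNA and no miRNA of the whole table was called between LLS and SLS under any of the 12 alternatives, whose smallest adjusted p lay between 0.0681 (without ZD8) and 1. The log2 fold changes of the 6 miRNAs tested by name kept their direction with a pseudocount of 0.1 RPM, without the filter, after median centring and by edgeR and DESeq2. The size moved by over 1.5 times for miR-7857-3p (0.81, against 0.52 with a pseudocount of 0.1 RPM, 2.11 by edgeR's quasi-likelihood test and 2.17 by DESeq2) and for miR-10391 (1.47, against 0.69 by edgeR and 0.76 by DESeq2). Leaving out ovaries reversed 2 of them. That of miR-10391 ran from -0.15 (without ZD12) to 2.42 (without ZD3), and that of miR-7857-3p from -0.32 (without ZD5) and -0.20 (without ZD7) to 2.96 (without ZD8). The others kept their direction, from -1.52 (without ZD12) to -0.37 (without ZD3) for miR-9841-3p, from 0.29 (without ZD5) to 1.4 (without ZD8) for miR-1249, from -0.88 (without ZD5) to -0.19 (without ZD8) for miR-1285 and from 0.50 (without ZD3) to 1.04 (without ZD12) for miR-10384. The cause was not tested. The number of members at 1 RPM was 64 by the mean, 41 when every ovary had to reach it and 104 when 1 ovary was enough. At 10 RPM it was 36 by the mean and 22 in every ovary, and at 100 RPM it was 10 by the mean and 18 in at least 1 ovary. Leaving out 1 ovary moved none of these counts by over 1.5 times. Of the SDs of the 8 variable miRNAs, those of miR-10391 (2.18 to 1.12) and miR-10390 (1.5 to 0.66) moved by over 1.5 times without ZD12, and those of miR-1842 (1.22 to 0.63) and miR-2366 (1.12 to 0.69) without ZD8. Median centring moved the last 2 to 0.79 and 0.70.

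Groups of 3 ovaries limit every comparison, and single ovaries decide some of them (ZD8, ZD5 and ZD7 for miR-7857-3p, ZD12 for miR-10391, ZD3 and ZD12 for miR-9841-3p). No paired analysis was possible because the ovaries come from different sows and no label ties an SLS ovary to an LLS ovary. Values under about 1 RPM rest on few reads.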

Other observations

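The block from miR-9784 to miR-9862 differed from the other high-numbered miRNAs in features of its sequences, described here without a test. When the rows of the block were put in the order of their number, 77 of 78 neighbours were also in alphabetical order of the mature sequence, against 23 of 48 neighbouring numbers among the other members. The 4 bases TCGG, noticed while the sequences were read, stood in 31 of the 79 sequences of the block (39.2%), in 3 of the 67 other members (4.48%) and in 15 of the 311 lower-numbered miRNAs (4.82%). In 27 of the 79 they lay within the last 10 bases. The reverse complement, CCGA, stood in 2 of 79 (2.53%), 2 of 67 (2.99%) and 11 of 311 (3.54%). The 31 rows with the motif had a median of 0.366 RPM and 3 of them reached 1 RPM, and the 48 rows without it had a median of 0.746 RPM with 10 at 1 RPM. The 3 other members with the motif were miR-1307, miR-2320-5p and miR-1842, each with a higher mean than any row of the block that holds it. The 5 most abundant rows of the block with the motif, TCGG in capitals, are shown because 1 of them, miR-9858-5p, is among the most variable members.
miR-9858-5p: ttcctgagTCGGactgggct
miR-9796-3p: cagggaactttgtcgTCGGt
miR-9855-5p: tgtgtgttctgTCGGatgagc
miR-9824-5p: ggcggaggcgaTCGGggtggc
miR-9853-5p: tgtctaggccgTCGGggagt

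Their means over the 6 ovaries were 11.0 RPM for miR-9858-5p, 4.65 RPM for miR-9796-3p, 1.13 RPM for miR-9855-5p, 0.756 RPM for miR-9824-5p and 0.738 RPM for miR-9853-5p. These are descriptions of rows picked after the values and sequences had been seen, and no test was made.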
